A study of Mus musculus with 2 samples.

Results

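Heat shock proteins and DnaJ co-chaperones were taken as all protein-coding genes of the deposited tables whose symbol is Hspa or Hspb followed by a number or starts with Hsp90 or Dnaj, together with Hspd1, Hspe1 and Cryab. They number 71 of 43346 Ensembl genes, of which 21474 are protein-coding. The 71 are 7 small heat shock proteins expressed in muscle, 17 general chaperones of the Hsp70, Hsp90 and chaperonin families, 45 DnaJ co-chaperones, and Hspb9 and Hspb11, which were kept apart. RNA was taken from the heart of a single C57BL/6J mouse, an adult female 10 weeks old, for which the labels give no treatment and no genetic change. Poly(A) RNA was sequenced in 2 libraries that the labels call technical replicates 2 and 1 of biological replicate 1; replicate 2 was made later than replicate 1. No group of animals can be compared, so each test below sets replicate 2 against replicate 1, covers counting error only and says nothing of a condition or of other mice.

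Chaperones bind unfolded proteins and either hold them or help them fold. Hsp70 proteins do so in cycles of ATP use that DnaJ co-chaperones start and exchange factors end, Hsp90 acts on nearly folded clients, and the chaperonins enclose a protein in a chamber. Small heat shock proteins use no ATP, and in heart muscle they bind desmin, filamin and titin, the filaments that hold the contractile units in place.

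Replicate 2 held 19685821 counts and replicate 1 held 22775991. Genes of the mitochondrial genome and their nuclear copies took 35.7% of counts in replicate 2 and 77.9% in replicate 1, which left 12654724 and 5028154 nuclear counts. Levels are therefore given as nuclear TPM, the deposited TPM (an abundance corrected for transcript length) rescaled to the same sum without those genes. The mean GC content behind a nuclear count was 50.5% in replicate 2 and 45.0% in replicate 1. All 5 cardiomyocyte markers were present, with a summed level of 73490 nuclear TPM in replicate 2 and 13850 in replicate 1. Skeletal muscle markers summed to 1.66 nuclear TPM in replicate 2 and 0 in replicate 1, and testis markers to 0.205 and 2.08, with Prm1 listed at 0 in both. In RNA of a whole tissue, fewer cells of a type and less RNA per cell cannot be told apart. Here the labels call both libraries technical replicates of biological replicate 1. The source of the marker difference between them was not tested.

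Summed by class, small heat shock proteins nearly equalled general chaperones in replicate 2 and were far below them in replicate 1. Their 7 genes summed to 5351 nuclear TPM in replicate 2 and 1473 in replicate 1, while the 17 general chaperones summed to 5591 and 9830. Among the members' summed TPM, small heat shock proteins held 40.6% in replicate 2 and 9.29% in replicate 1, general chaperones 42.4% and 62.0%, and DnaJ co-chaperones 16.8% and 28.5%. All 71 genes together made up 1.32% of nuclear TPM in replicate 2 and 1.59% in replicate 1.

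The log2 ratio of summed TPM, small over general, was -0.06 in replicate 2 and -2.74 in replicate 1 (mean -1.40 ± 1.89, SD, n = 2 libraries). The sign was negative in both libraries, and the mean lay within its spread. As a plain ratio it was 0.957 in replicate 2 and 0.150 in replicate 1. Without Hspa8 and Hsp90ab1, the general chaperones with the highest mean level, the ratio was 2.13 in replicate 2 and 0.222 in replicate 1. With replicate 1 brought to the GC profile of replicate 2, the ratio was 0.957 in replicate 2 and 1.05 in replicate 1. Before that step Hspb6 held 66.3% of the summed TPM of the small heat shock proteins in replicate 1. The step was not repeated without Hspb6. On the deposited values without Hspb6, the ratio was 0.789 in replicate 2 and 0.0505 in replicate 1.

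**Figure D1:**
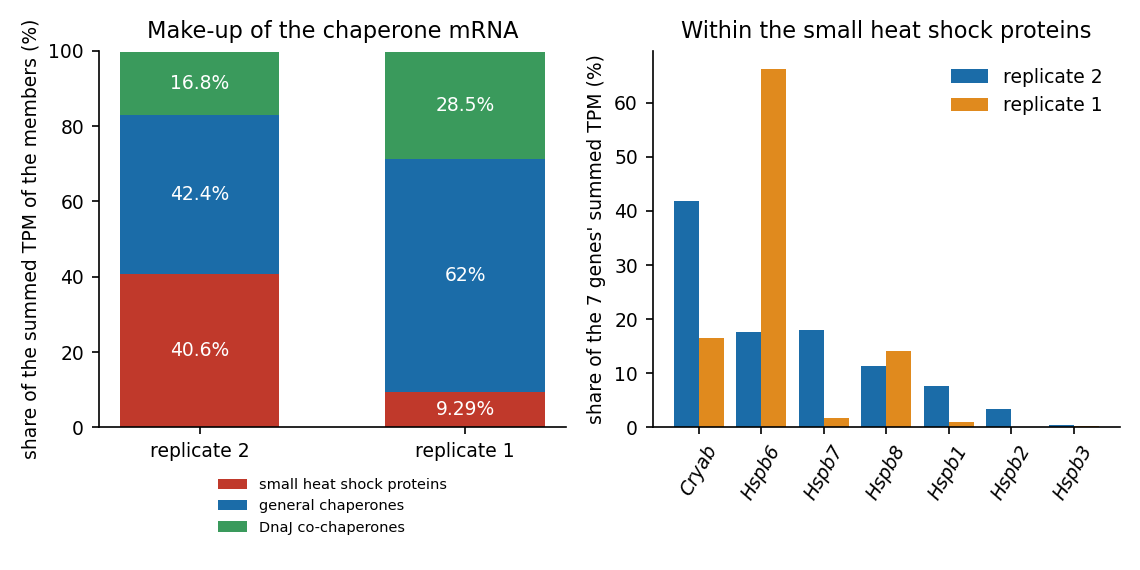
The left panel shows the share (%) of the members' summed TPM held by each class in replicate 2 (left bar) and replicate 1 (right bar). The right panel shows how each library divides the summed TPM of the 7 small heat shock proteins, with replicate 2 left of replicate 1: Cryab held 41.9% in replicate 2, and Hspb6 held 66.3% in replicate 1.

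Between the libraries, 63 members had the 20 counts over both that the test required. At a fold of 2 or more and a Benjamini-Hochberg adjusted p under 0.05 in edgeR's exact binomial test, 20 were higher in replicate 2, 20 were lower and 23 were neither. Among all 13182 genes tested, 38.4% were called higher and 27.2% lower. The members' shares, 31.7% in each direction, lay near that background. The median log2 ratio, replicate 2 over replicate 1, was -0.31 over the members and 0.21 over all genes tested.

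Counts by class were unlike. Of the 7 small heat shock proteins 6 were higher in replicate 2 and none was lower, with a median log2 ratio of 3.42. Among the higher ones, Hspb2 and Hspb3 passed the filter on low counts only through replicate 2 and had to differ. Of the 17 general chaperones 4 were higher and 7 lower, with a median of -0.77. Of the 38 DnaJ genes tested, 10 were higher and 12 lower, with a median of -0.48. Dnajc4 and Dnajc17, among the higher DnaJ genes, also passed the filter on low counts only through replicate 2. With the median trend of all genes with GC content removed, 3 small heat shock proteins were higher and 1 lower. Hspb2 and Hspb3 were again among the higher ones, and the class median was 0.67. By that measure no general chaperone was higher and 6 were lower, with a median of -0.56, and 2 DnaJ genes were higher and 1 lower, with a median of 0.03. Among all genes tested, 10.2% were then called higher and 11.0% lower. Cardiomyocyte markers moved the way of the small heat shock proteins, with 5 of 5 higher and a median log2 ratio of 3.42, and their part in the result was not tested. Smooth muscle markers were higher in 3 of 3, endothelial markers in 3 of 4, macrophage markers in 2 of 3 and fibroblast markers in 1 of 4. Another fibroblast marker, Dcn, was called lower, with a log2 ratio of -1.11. The higher macrophage markers, Cd68 and C1qa, had 2 and 7 counts in replicate 1. They passed the filter on low counts only through replicate 2 and had to differ. Red cell markers were higher in 2 of 2, with a median log2 ratio of 6.54. Of these, Hba-a1, with 4.15 counts in replicate 1, also passed the filter only through replicate 2 and had to differ. The part of any of these marker lists in the result was not tested either. With the GC trend removed, 3 of 5 cardiomyocyte, 2 of 3 smooth muscle, 1 of 4 endothelial and 1 of 3 macrophage markers were called higher. So were 2 of 2 red cell markers, while of 4 fibroblast markers none was higher and 2 were lower.

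**Figure D2:**
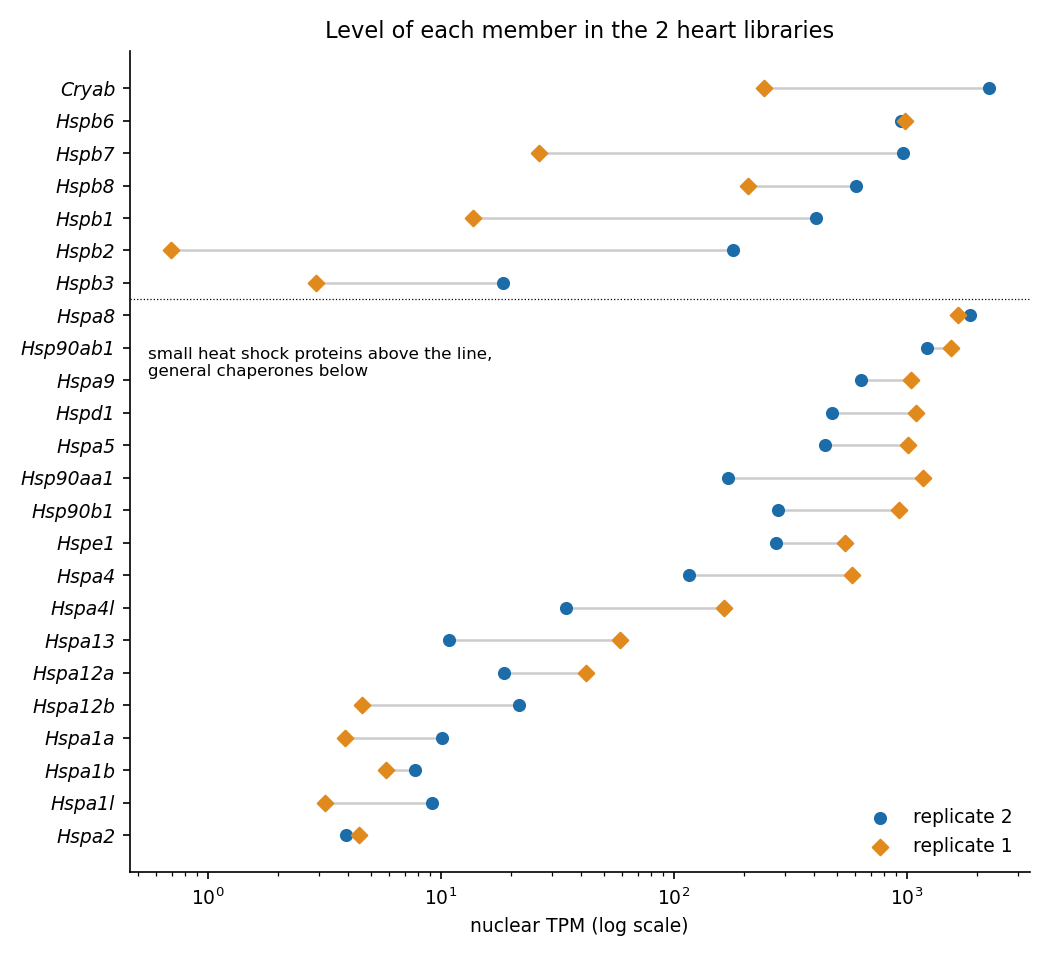
Level of each small heat shock protein (above the dotted line) and each general chaperone (below it) in nuclear TPM on a log axis, with replicate 2 as circles and replicate 1 as diamonds joined by a line. Most small heat shock proteins lay far higher in replicate 2, while Hspb6 and Hspa8 were nearly level in both libraries.

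Cryab, which encodes alpha B-crystallin, a lens protein that in muscle guards desmin filaments, was the most abundant member in replicate 2. It had 2244 nuclear TPM in replicate 2, rank 50 among nuclear protein-coding genes, and 244 nuclear TPM in replicate 1, rank 709 (mean 1244 ± 1414, SD, n = 2). It was called, with a fold of 10.7 between 16910 and 570 counts. Hspb2, whose product binds the myotonic dystrophy kinase, is its neighbour on the opposite strand of chromosome 9, and the 2 genes overlap by 1030 bases. Hspb2 had 178.8 nuclear TPM in replicate 2 and 0.693 in replicate 1, from 881 counts and 1 count. The ratio of its scaled counts was 318 with a 95% exact binomial interval of 56.9 to 12600. It passed the filter on low counts only through replicate 2. The labels and files do not say if strand was used in counting, and reads of the shared stretch cannot be told apart.

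Hspb7, a heart-enriched protein that binds filamin C, had 961.5 nuclear TPM in replicate 2 and 26.3 in replicate 1. Its counts were 18761 and 159, a fold of 42.5 that passed the test. Hspb8, which works with the co-chaperone Bag3 to clear damaged filamin, changed far less. It had 602.7 nuclear TPM in replicate 2 and 208.5 in replicate 1, a fold of 3.36 (adjusted p = 8.81e-317, edgeR exact binomial test). Hspb1, the stress-induced Hsp25 of mouse, which binds actin, had 405.5 nuclear TPM in replicate 2 and 13.7 in replicate 1, from 2191 and 23 counts, a fold of 33.7 (adjusted p = 2.84e-251, same test). Hspb3, the partner of Hspb2 in muscle, had the lowest mean level of the 7. It had 18.5 nuclear TPM in replicate 2 and 2.91 in replicate 1, from 83 and 4 counts, a fold of 6.70 (adjusted p = 2.42e-07, same test). Hspb3 passed the filter on low counts only through replicate 2. In each of these 4 genes replicate 2 was the higher library.

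Hspb6, or Hsp20, which in the heart is phosphorylated on adrenergic stimulation, was the exception at gene level. It had 940.4 nuclear TPM in replicate 2 and 977.1 in replicate 1 (mean 958.7 ± 25.9, SD, n = 2). Its log2 ratio of 0.24 stayed under the 2-fold threshold (adjusted p = 1.52e-13, edgeR exact binomial test). The level did not come from the same transcript. The coding transcript Hspb6-201 carried 99.2% of the gene's abundance in replicate 2, with 8287 counts, and 1.65% in replicate 1, with 44.3. The transcript Hspb6-202, annotated as processed and noncoding, carried 0.75% in replicate 2, with 59.4 counts, and 98.4% in replicate 1, with 2500. Counted on the coding transcript alone, Hspb6 had 933.1 nuclear TPM in replicate 2 and 16.1 in replicate 1, a ratio of 58.1, in the range of its relatives. These are the deposited estimates for transcripts that are alike outside their first exon. Neither the quantifier nor its use of strand is named in the labels or files. The span of Hspb6 also overlaps Lin37 and Proser3 on the opposite strand. How reads were divided among these transcripts and genes was not tested.

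These transcripts share the second and the third exon and differ in the first. The first exon of Hspb6-201 spans chr7:30553268-30553532, has 265 bases and a GC content of 63.0%. The first exon of Hspb6-202 spans chr7:30552524-30552727, has 204 bases and a GC content of 55.4%. RefSeq gives the gene 2 starts on the plus strand, and the 250 bases before each (GRCm38.p6) are shown because the libraries differed in the transcript to which reads were assigned; the starts fall in these 2 exons. Capitals mark GAANNTTC, a pair of heat shock element units, and TATAAA.
Hspb6 upstream start, chr7:30552290-30552539: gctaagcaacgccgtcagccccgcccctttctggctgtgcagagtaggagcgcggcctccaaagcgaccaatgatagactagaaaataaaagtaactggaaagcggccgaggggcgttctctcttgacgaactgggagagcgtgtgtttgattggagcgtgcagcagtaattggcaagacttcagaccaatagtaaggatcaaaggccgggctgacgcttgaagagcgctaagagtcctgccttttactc
Hspb6 coding start, chr7:30553051-30553300: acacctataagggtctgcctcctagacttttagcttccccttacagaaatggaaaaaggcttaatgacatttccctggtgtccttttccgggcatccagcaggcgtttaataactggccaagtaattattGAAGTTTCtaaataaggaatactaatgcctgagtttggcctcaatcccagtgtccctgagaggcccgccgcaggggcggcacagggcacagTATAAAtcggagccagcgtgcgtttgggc
The window before the coding start held both motifs, with TATAAA at position -29 and the paired units at -120, and the upstream window held neither. Positions count from the start, with -1 as the last base before it.

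On coding transcripts alone the class contrast widened. Small heat shock proteins had 99.8% of their TPM on coding transcripts in replicate 2 and 34.8% in replicate 1, where Hspb6-202 made up nearly all of the rest. General chaperones had 97.4% and 87.3%, DnaJ co-chaperones 82.9% and 77.2%, and all nuclear protein-coding genes 92.7% and 81.8%. The ratio of small over general coding TPM was 0.982 in replicate 2 and 0.0597 in replicate 1.

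Other members changed their leading transcript too. Of 45 tested members with more than 1 deposited transcript, 27 were led by 1 transcript in both libraries and 18 were not. The same share over all genes was not computed, so these counts cannot show if the members differ from other genes. Some changes rested on few counts, as for Dnajc4 with 3 in replicate 1. Others were near ties, as for Dnajc8 in replicate 1, where Dnajc8-205 held 29.65% and Dnajc8-202 held 26.95%. For 17 of the 18 both transcripts have a name in the annotation used; the lead of replicate 1 was shorter in 14 and had a lower GC content in 12. The lead was coding in 16 of these 17 in replicate 2 and in 10 in replicate 1. Hsp90ab1-201, the full coding transcript, held 98.9% in replicate 2 and 31.8% in replicate 1, where the short Hsp90ab1-208 held 67.9%. Hsp90aa1-205, a retained-intron fragment, held 0% of Hsp90aa1 in replicate 2 and 50.6% in replicate 1. For Hspa4, the retained-intron transcript Hspa4-202 held 22.8% in replicate 2 and 60.4% in replicate 1. By counts, Hsp90aa1-205 had 417 of the 4318 of its gene in replicate 1. The shares are estimates from the deposited tables, and how their quantifier divided reads among transcripts was not tested.

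**Figure D3:**
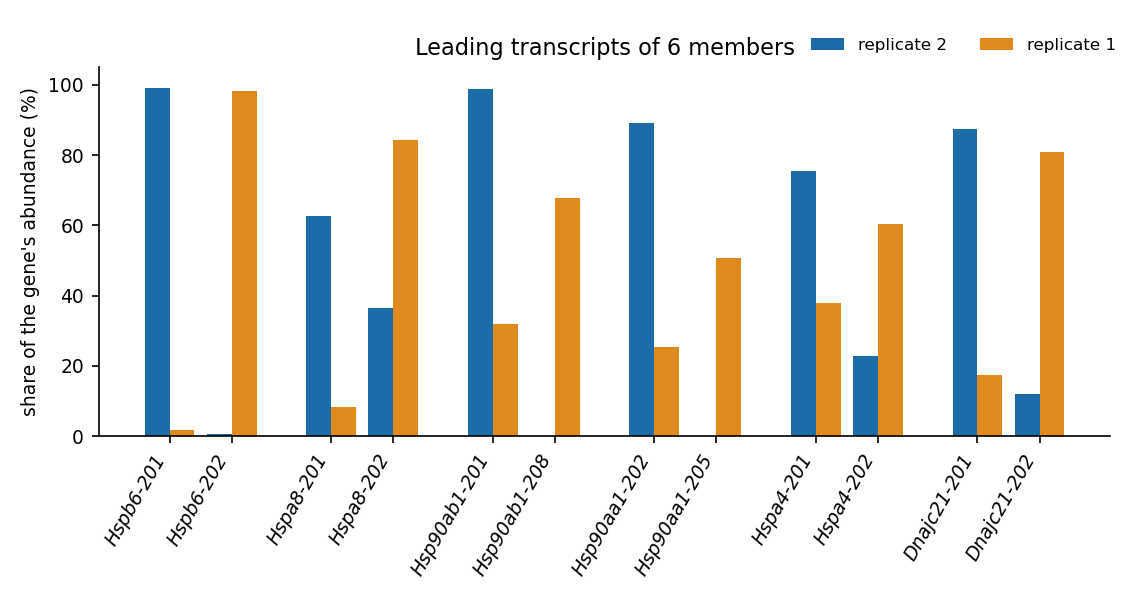
Share (%) of each gene's abundance held by the leading transcript of replicate 2 and by that of replicate 1, for 6 members, with the replicate 2 bar left of the replicate 1 bar. In every gene shown the leading transcript differs, and for Hspb6 the shares are 99.2% and 0.75% in replicate 2 against 1.65% and 98.4% in replicate 1.

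Among cytosolic Hsp70 genes, Hspa8 carried nearly all mRNA. Hspa8, the constitutive Hsc70, had 1859 nuclear TPM in replicate 2, rank 69, and 1650 nuclear TPM in replicate 1, rank 67 (mean 1754 ± 148, SD, n = 2). Its log2 ratio of 0.62 stayed under the 2-fold threshold (adjusted p = 5.36e-228, edgeR exact binomial test). The transcripts shifted: Hspa8-201 held 62.8% in replicate 2 and 8.27% in replicate 1, while Hspa8-202 held 36.5% and 84.2%. Both are coding. Pseudogene copies of Hspa8 held few counts, the highest being Gm15459 with 120 in replicate 2 and 38.6 in replicate 1.

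The stress-inducible Hsp70 genes were low. Hspa1a had 10.1 nuclear TPM in replicate 2 and 3.88 in replicate 1, and Hspa1b had 7.75 and 5.82. Their coding sequences are nearly identical, so how reads divided between them is uncertain, and their sum was 365 counts in replicate 2 and 61 in replicate 1. The log2 TPM ratio of Hspa8 over that sum was 6.68 in replicate 2 and 7.22 in replicate 1 (mean 6.95 ± 0.38, SD, n = 2). Hspa1l, a relative best known from testis, had 9.13 nuclear TPM in replicate 2 and 3.19 in replicate 1, and Hspa2, needed for sperm formation, had 3.91 and 4.43. Hspa1a and Hspa1l were called higher in replicate 2 (adjusted p = 2.70e-09 and 7.20e-08, edgeR exact binomial test). Hspa1l had 17 counts in replicate 1, fewer than the filter required, and reached it with the counts of replicate 2.

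The window before Hspa1a is shown because its gene is the textbook heat shock target and was low in both libraries. The 250 bases lie on the minus strand of chromosome 17 (RefSeq, GRCm38.p6), and capitals mark paired heat shock element units at position -104. The window before Hspa1b has the same base at 247 of the 250 positions.
Hspa1a, chr17:34972157-34972406: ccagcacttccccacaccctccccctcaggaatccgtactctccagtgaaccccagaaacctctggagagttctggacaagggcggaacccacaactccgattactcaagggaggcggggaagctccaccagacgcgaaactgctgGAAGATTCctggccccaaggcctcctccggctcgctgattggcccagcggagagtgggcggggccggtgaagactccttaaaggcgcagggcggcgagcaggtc

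Hspa4 and Hspa4l, the Hsp110-like exchange factors among the members, were both lower in replicate 2. Hspa4 had 116 nuclear TPM in replicate 2 and 579 in replicate 1, a log2 ratio of -1.29 (adjusted p = 4.41e-239, edgeR exact binomial test). Hspa4l had 34.5 and 163.5, a log2 ratio of -1.78 (adjusted p = 5.74e-230, same test). With the GC trend removed they lay at 0.05 and -0.56 and neither was called. Their ratio held steady, with a log2 of 1.74 in replicate 2 and 1.82 in replicate 1 (mean 1.78 ± 0.05, SD, n = 2). The divergent Hspa12a and Hspa12b, the second known from endothelium, went apart: Hspa12a had 18.7 nuclear TPM in replicate 2 and 42.0 in replicate 1 and was not called, and Hspa12b had 21.6 and 4.57 and was called higher, with a log2 ratio of 2.38 (adjusted p = 2.59e-32, same test).

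The cytosolic Hsp90 genes took opposite directions on the count scale of the test, though in nuclear TPM both were lower in replicate 2. Hsp90ab1, the constitutive form, had 1223 nuclear TPM in replicate 2 and 1538 in replicate 1, yet on the count scale of the test it was called higher in replicate 2, just past the threshold with a log2 ratio of 1.01. With DESeq2 size factors this call was lost. Hsp90aa1, the inducible form, had 169.9 nuclear TPM in replicate 2 and 1170 in replicate 1, a log2 ratio of -1.61, and was called lower. The log2 TPM ratio of Hsp90ab1 over Hsp90aa1 was 2.85 in replicate 2 and 0.39 in replicate 1.

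The 3 general chaperones of the endoplasmic reticulum were all lower in replicate 2. Hspa5, or BiP, the Hsp70 of that compartment, had 444.9 nuclear TPM in replicate 2 and 1008 in replicate 1, a log2 ratio of -1.14. Hsp90b1, or Grp94, its Hsp90 partner, had 278.8 and 922.8, a log2 ratio of -1.54. Hspa13, a microsomal Hsp70 without a substrate domain, had 10.9 and 58.6, a log2 ratio of -2.21. All 3 passed the test, against 27.2% of all genes called lower. With the GC trend of all genes removed they lay at -0.78, -0.19 and -0.21 and none was called, and without the filter on low counts the call of Hspa5 was lost. The window before Hspa5 on the plus strand of chromosome 2 (RefSeq, GRCm38.p6) is shown because it holds the endoplasmic reticulum stress element, whose 2 ends CCAAT and CCACG stand 9 bases apart; capitals mark it at position -65.
Hspa5, chr2:34771840-34772089: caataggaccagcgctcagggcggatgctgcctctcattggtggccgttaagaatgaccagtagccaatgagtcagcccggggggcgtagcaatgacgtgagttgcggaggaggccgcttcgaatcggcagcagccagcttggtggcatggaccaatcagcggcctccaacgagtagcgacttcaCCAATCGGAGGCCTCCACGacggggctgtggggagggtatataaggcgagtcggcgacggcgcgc
This element was found, on either strand, in the windows of 3 members: Hspa5, Hsp90b1 and Dnajc3, all of the same compartment. It occurs in 0.113% of all 32851 RefSeq windows.

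Mitochondrial matrix chaperones fell between these groups. Hspa9, or mortalin, which pulls imported proteins into the matrix, had 632.6 nuclear TPM in replicate 2 and 1042 in replicate 1, a log2 ratio of -0.50 that stayed under the threshold. Hspd1, the Hsp60 chaperonin, had 476.4 and 1091, a log2 ratio of -1.06, and was called lower, a call lost with the nuclear total as library size and without the filter on low counts. Hspe1, the Hsp10 lid of that chamber, had 273.5 and 542.8, a log2 ratio of -0.77, and was not called. Hspe1 and Hspd1 lie head to head on chromosome 1 and their spans overlap by 112 bases. The log2 TPM ratio of Hspe1 over Hspd1 was -0.80 in replicate 2 and -1.01 in replicate 1 (mean -0.90 ± 0.15, SD, n = 2). The window before Hspe1 on the plus strand (RefSeq, GRCm38.p6) is shown because most of it also lies before a RefSeq start of Hspd1. Capitals mark 3 overlapping pairs of heat shock element units, at positions -89, -84 and -79.
Hspe1, chr1:55087898-55088147: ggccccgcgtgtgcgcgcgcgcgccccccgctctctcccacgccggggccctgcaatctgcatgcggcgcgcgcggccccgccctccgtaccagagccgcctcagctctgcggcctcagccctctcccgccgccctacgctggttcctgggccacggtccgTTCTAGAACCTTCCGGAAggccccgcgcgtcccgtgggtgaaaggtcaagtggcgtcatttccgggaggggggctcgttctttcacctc

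Heat shock elements, the binding sites of heat shock factors, were searched as GAANNTTC or TTCNNGAA, which read alike on both strands, in the 250 bases before each RefSeq start. Such a pair was present in 12.8% of all windows and in 14 of the 72 windows of the 56 members that have one, or 19.4%. By class it was found for 3 of 5 small heat shock proteins (Hspb1, Hspb3 and Hspb6), 4 of 12 general chaperones (Hspa1a, Hspa1b, Hspd1 and Hspe1) and 6 of 37 DnaJ genes. The longer form of 3 units, GAANNTTCNNGAA or TTCNNGAANNTTC on either strand, overlaps these by construction. It was present in 0.466% of all windows and, among members, before Hspd1, Hspe1 and Dnajb6. Hspb1, on the plus strand of chromosome 5, is shown as the small heat shock protein with more than 1 pair, marked in capitals at positions -117 and -97.
Hspb1, chr5:135887669-135887918: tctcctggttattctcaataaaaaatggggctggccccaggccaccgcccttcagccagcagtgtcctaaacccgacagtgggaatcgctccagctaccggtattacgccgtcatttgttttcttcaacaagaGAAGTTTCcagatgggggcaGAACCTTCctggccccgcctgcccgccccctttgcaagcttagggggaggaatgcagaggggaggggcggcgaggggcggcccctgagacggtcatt
A match describes letters in a window and is not a measured binding site.

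DnaJ co-chaperones, which bring clients to Hsp70 and start its ATP cycle, were each less abundant in TPM than Hspa8 in both libraries. The 4 class A genes, those built most like bacterial DnaJ, summed to 552 nuclear TPM in replicate 2 and 1331 in replicate 1. Dnaja2, the most abundant DnaJ gene, had 217 and 719.5, a log2 ratio of -1.51, and Dnaja1 had 115.6 and 409.9, a log2 ratio of -1.64; both are cytosolic partners of Hspa8 and both were called lower. Their log2 TPM ratio, Dnaja1 over Dnaja2, was -0.91 in replicate 2 and -0.81 in replicate 1 (mean -0.86 ± 0.07, SD, n = 2). Dnaja4 had 90.3 and 134 nuclear TPM and was not called. Dnaja3, the mitochondrial Tid1, went the other way, with 129 nuclear TPM in replicate 2 and 67.2 in replicate 1 and a log2 ratio of 1.18 (adjusted p = 8.99e-57, edgeR exact binomial test).

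Class B held 13 genes, of which 9 were tested, 4 were higher and 3 lower, against 38.4% and 27.2% of all genes. Dnajb4, a cytosolic partner of Hsp70, had 109.6 nuclear TPM in replicate 2 and 485.4 in replicate 1, a log2 ratio of -1.93. Dnajb9, or ERdj4, of the endoplasmic reticulum, had 55.4 and 355.9, the most negative log2 ratio of the members at -2.46. Dnajb14, an endoplasmic reticulum membrane protein, had 6.91 and 23.0, a log2 ratio of -1.53, while its relative Dnajb12 had 26.7 and 4.71, a log2 ratio of 2.59. All 4 were called, Dnajb12 as the only higher one.

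Dnajb6, which keeps proteins from aggregating and lies at the Z-disc of muscle, had 83.0 nuclear TPM in replicate 2 and 183 in replicate 1 and was not called. Its long transcript Dnajb6-201 held 54.5% in replicate 2 and 22.4% in replicate 1, and the shorter Dnajb6-203 held 34.8% and 76.7%. Dnajb1, the classic heat-inducible Hsp40, had 23.8 and 10.5 nuclear TPM, a log2 ratio of 1.39, and was called higher (adjusted p = 6.33e-13, edgeR exact binomial test). Dnajb2, a ubiquitin-binding co-chaperone, had 137.6 and 50.7, a log2 ratio of 2.22. Dnajb5, a cytosolic Hsp40 relative, had 86.6 and 6.10, a log2 ratio of 3.55 (adjusted p = 2.36e-150, same test).

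Class C, which shares only the J domain, held 28 genes, of which 25 were tested, 5 were higher and 7 lower, against the same shares of all genes. Among the higher ones, Dnajc4 and Dnajc17 passed the filter on low counts only through replicate 2. With the GC trend removed, 1 gene of class B was higher and none lower, and 1 of class C was higher and 1 lower. Dnajc15, at the inner mitochondrial membrane, was the most abundant, with 188 nuclear TPM in replicate 2 and 497 in replicate 1, a log2 ratio of -1.19. Its only deposited transcript, Dnajc15-201, is annotated for nonsense-mediated decay and not as coding. Dnajc19, of the import motor there and mutated in a human cardiomyopathy with ataxia, had 103.7 and 187.9 and was not called. Dnajc7, a bridge between Hsp70 and Hsp90, had 154 and 173, a log2 ratio of 0.01, the nearest to 0 of the members (adjusted p = 0.964, edgeR exact binomial test). Dnajc8, of the spliceosome, had 96.8 and 197.5 and was not called. Dnajc21, which acts in ribosome assembly, had 40.0 and 205.2, a log2 ratio of -1.73, and was called lower; the coding Dnajc21-201 led with 87.5% in replicate 2, and the noncoding Dnajc21-202 led with 80.8% in replicate 1.

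The largest ratio of a DnaJ gene was that of Dnajc4, with 52.1 nuclear TPM in replicate 2 and 1.94 in replicate 1. It rested on 317 and 3 counts, a ratio of scaled counts of 38.1 with a 95% exact binomial interval of 12.9 to 186. Dnajc11, of the mitochondrial cristae complex, had 47.0 and 22.7 nuclear TPM, a log2 ratio of 1.97 (adjusted p = 5.64e-49, edgeR exact binomial test). In the endoplasmic reticulum pair, Dnajc3 had 29.6 and 83.5 nuclear TPM, a log2 ratio of -1.28, and Dnajb11 had 53.3 and 41.4, a log2 ratio of 0.58. The order of those genes therefore differed between the libraries.

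At or above 1 nuclear TPM in both libraries were 61 of the 71 members: 6 small heat shock proteins, all 17 general chaperones, 37 DnaJ genes and Hspb11. Hspb11, an intraflagellar transport protein despite its name, had 12.3 nuclear TPM in replicate 2 and 32.4 in replicate 1 (adjusted p = 1.39e-03, edgeR exact binomial test). No count fell on Hspb9, Dnajc5b, Dnajb8 or Dnajc5g in either library, genes best known from testis. A count of 0 allows up to 3 counts, or 1.52e-05% of the library in replicate 2 and 1.32e-05% in replicate 1. Dnajb3, Dnajb7, Dnajb13 and Dnajc22 had 2 to 4 counts over both libraries and were not tested.

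The log2 ratio of a member ran with the GC content of its transcripts. Across the 63 tested members Pearson's r was 0.85 and Spearman's rho 0.90, and across 13155 tested genes they were also 0.85 and 0.90; these describe genes of the same 2 libraries and are not replicates. The median GC content was 55.3% for small heat shock proteins, 49.3% for general chaperones and 47.4% for DnaJ genes. Genes of 54% to 58% GC had a median log2 ratio of 2.96, and the 10 members among them 2.49. Genes of 42% to 46% GC had a median of -1.26, and the 16 members among them -1.40.

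**Figure D4:**
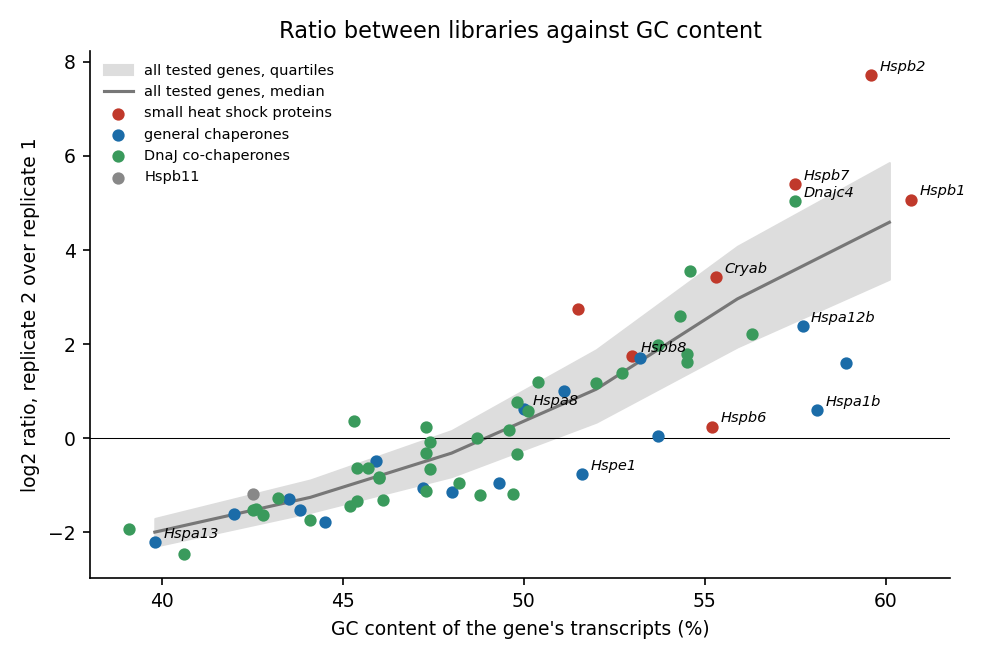
Log2 ratio of replicate 2 over replicate 1 (vertical) against GC content in % (horizontal) for the 63 tested members, coloured by class, with the median and quartiles of all tested genes in 6 bins of GC content as line and band. Most members lie in or near the band, with Hspb2, Hspb3, Hspb7, Dnajc12 and Dnajc4 among those above it and Hspb6, Hspa1a, Hspa1b, Hspa2 and Hspe1 among those below it.

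With the median trend with GC content removed over all genes, 5 of the 63 members were higher and 8 lower in replicate 2, against 10.2% and 11.0% of all genes tested. Hspb2, Hspb7 and Hspb3 were still called higher, with log2 ratios of 3.26, 1.58 and 1.90; Hspb2 and Hspb3 passed the filter on low counts only through replicate 2, with 1 and 4 counts in replicate 1, and had to differ. Cryab, Hspb8 and Hspb1 were no longer called, with 0.67, 0.28 and 0.16. Hspb6 then lay at -2.51 and was called lower, the gene whose replicate 1 reads sat on the noncoding transcript. No general chaperone was called higher, and 6 were called lower: Hspe1 at -1.80, Hspa12a at -1.01, Hspa12b at -1.44, Hspa1a at -2.67, Hspa1b at -3.60 and Hspa2 at -1.60. None of these 6 had been called lower before, and Hspa12b and Hspa1a had been called higher. The abundant Hspa8, Hsp90ab1, Hsp90aa1, Hsp90b1, Hspa5, Hspa9 and Hspd1 lay between -0.78 and 0.47 and none was called. Of the DnaJ genes, Dnajb5 at 1.38 and Dnajc12 at 1.32 were called higher and Dnajc15 at -1.38 lower.

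Ratios within a library do not depend on its scaling. Of 16 pairs of related members, 13 had the same sign in both libraries. The signs differed for Hspb7 over Hspb8, with a log2 of 0.67 in replicate 2 and -2.92 in replicate 1, for Dnaja3 over Dnaja1, with 0.16 and -2.58, and for Dnajc3 over Dnajb11, with -0.84 and 0.99. Among small heat shock proteins, Cryab exceeded Hspb1 by a log2 of 2.47 in replicate 2 and 4.02 in replicate 1 and Hspb2 by 3.65 and 6.88, the last resting on 1 count of Hspb2 in replicate 1. With replicate 1 brought to the GC profile of replicate 2, 13 pairs again shared a sign but not the same 13: Dnajc3 over Dnajb11 had -0.84 in replicate 2 and -0.86 in replicate 1, and Hspe1 over Hspd1 had -0.80 and 0.42. Hspa8 over the sum of Hspa1a and Hspa1b then had 6.68 and 3.61. On the deposited values Hspa8 exceeded Hspa5 by 2.06 and 0.71, Hspa9 by 1.55 and 0.66 and Hspa2 by 8.80 and 8.15.

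**Figure D5:**
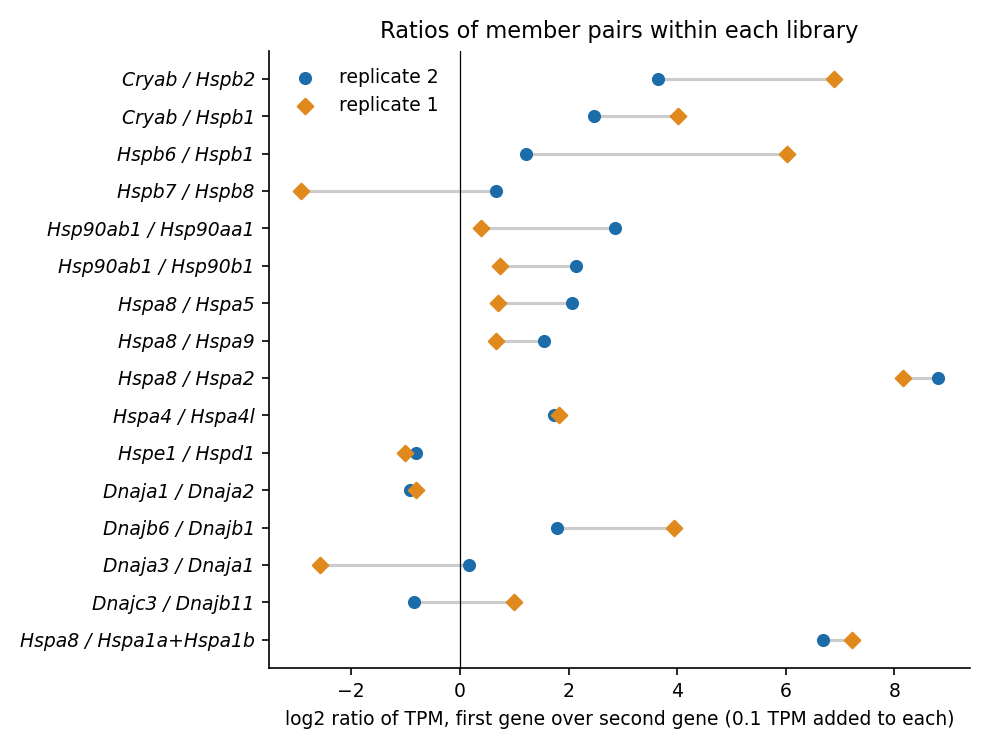
Log2 ratio of TPM, the first gene over the second with 0.1 TPM added to each, for 16 pairs, with replicate 2 as circles and replicate 1 as diamonds joined by a line. The pairs Hspa4 over Hspa4l, Dnaja1 over Dnaja2 and Hspe1 over Hspd1 nearly coincide in both libraries, and 3 pairs lie on opposite sides of 0.

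Regulators and partners of these chaperones moved in both directions, and their counts are to be read against 38.4% of all genes called higher and 27.2% lower. Of 5 regulators of the heat shock response 4 were tested, with 2 higher and 1 lower. Hsf1, the main heat shock factor, had 36.1 nuclear TPM in replicate 2 and 1.11 in replicate 1 (499 and 5 counts), and Hsf2 had 13.3 and 66.8, a log2 ratio of -2.11. Hsbp1, a small binding partner of the factors, had 127 and 203.5 and was not called. Of 14 exchange factors and co-chaperones of Hsp70 7 were higher and 2 lower: Bag1 had 262 and 570 nuclear TPM and was not called, St13 had 96.6 and 230, a log2 ratio of -1.29, and Bag3, the partner of Hspb8, had 191 and 86.9, a log2 ratio of 1.35.

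Of 13 co-chaperones of Hsp90 8 were higher and 5 lower. Fkbp4, an immunophilin, had 372 nuclear TPM in replicate 2 and 67.7 in replicate 1, a log2 ratio of 2.42, and Ptges3, or p23, had 92.4 and 497, a log2 ratio of -2.20. Of the 8 tested subunits of the cytosolic chaperonin TRiC 2 were higher, 1 was lower and 5 were neither; Tcp1 had 165 and 471 nuclear TPM and was not called, and Cct4 had 138 and 371.5, a log2 ratio of -1.01. Of 6 mitochondrial chaperones and proteases 4 were higher and none was lower, with Trap1 at 153 and 51.5 nuclear TPM and a log2 ratio of 1.79, and Clpx at 90.1 and 329 and not called. Of 10 proteins of the endoplasmic reticulum 5 were higher and 2 lower, among them Canx, a lectin chaperone, with 192.5 and 646, a log2 ratio of -1.72, and Pdia3, a disulfide isomerase, with 114 and 474, a log2 ratio of -1.70.

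The filaments that small heat shock proteins guard split as well. Des, encoding desmin, had 1252 nuclear TPM in replicate 2 and 28.1 in replicate 1, a log2 ratio of 6.02 at a GC content of 56.4%, and was called. Ttn, encoding titin, had 172.5 and 292.6, a log2 ratio of -0.52 at a GC content of 47.2%, and was not called. Flnc, encoding filamin C, had 92.8 and 1.25, a log2 ratio of 6.46, and was called. With the GC trend removed, 1 of 4 regulators, 1 of 14 partners of Hsp70, 2 of 13 partners of Hsp90, 1 of 8 TRiC subunits, 1 of 6 mitochondrial proteins, 2 of 10 proteins of the endoplasmic reticulum and 2 of these 3 filament genes were called higher. Lower were 2 partners of Hsp70 and 1 protein of the endoplasmic reticulum, and none in the other lists.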

How the data were processed

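Poly(A) RNA of 1 mouse heart was measured in 2 technical replicate libraries; the labels give no group to compare, and a spread over the libraries is technical. Genes and transcripts are those of assembly mm10 and annotation M4, per the descriptions deposited with the tables. For the aligner and quantifier, names were not given in the sources used here. The deposited tables hold expected counts, TPM and FPKM per gene and, as a percent, the share of a gene's abundance per transcript. The effective lengths and posterior means of the deposited tables served in ratios and alternatives.

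Identifiers were matched without version to GENCODE M21 (GRCm38, the same assembly), whose 1-based coordinates are given; 42462 of 43346 genes had a symbol. The Hspa14 identifier of that release was not matched and the gene is not analysed here. GC content is the TPM-weighted mean over transcripts. Nuclear copies of mitochondrial genes were found with blastn 2.17.0 (at least 95% identity over 90% of the length).

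Expected counts were rounded. edgeR 4.0.16 (R 4.3.3) compared the libraries by its two-sided exact binomial test on TMM-scaled totals over all genes with at least 20 counts in both together, with 0.5 counts added for log2 ratios and Benjamini-Hochberg adjustment over all 13182. Members and listed genes that passed only through the library where they were high, such as Hspb2, Hspb3, Dnajc4 and Hsf1, had to differ. The GC trend is the median log2 ratio in 50 bins. Pair ratios add 0.1 TPM. The steps were tested on simulated counts. Alternatives used DESeq2 1.42.0 size factors, other filters, folds, abundance estimates and member sets. Of these, 3 were chosen after seeing the data. They were coding transcripts only, leaving out Hspb6, and removing the GC trend in the lists of partners, cell type markers and DnaJ subclasses. Reads are not independent molecules, so intervals cover counting error only.

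Members, classes, pairs and lists were chosen with earlier results of these data known. Named are all small heat shock proteins and general chaperones; of the DnaJ genes the 12 of highest mean nuclear TPM, those without a count and the 5 largest ratios in each direction among those called; both genes of each pair; and the 2 highest genes of every other list. Hsf1, Bag3, Flnc, Hspb9, Hspb11, Dnajc12, Dnajc17 and the untested DnaJ genes were named after their values were seen. So were the cell type markers Dcn, Cd68, C1qa and Hba-a1. Promoter windows are those of RefSeq (GRCm38.p6), and 56 of the 71 members matched.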

Additional observations from a re-analysis of the deposited data

How the results depend on the processing

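With 1 animal and 1 library per replicate number, both ratios and calls carry no biological error. No paired analysis was possible because there is 1 group of 2 libraries. Of 71 members 61 were detected in both libraries, and 47 to 66 under other thresholds and scales. The 40 called members were 37 to 51 under other scalings, filters, the posterior mean counts and a fold of 1.5, but 12 at a fold of 4 and 13 with the GC trend removed (5 higher, 8 lower). Median log2 ratios, replicate 2 over replicate 1, moved with the scaling, which shifted the median of all genes from 0.21 to 0.11 with DESeq2 size factors and to 0.35 with the nuclear total: small heat shock proteins had 3.42, and 3.31 with DESeq2 size factors, 3.56 with the nuclear total, 3.57 without a filter, 4.26 with at least 100 counts (Hspb3 drops out) and 0.67 with the GC trend removed; general chaperones had -0.77, and -0.88, -0.63, -0.62 without a filter and -0.56 with the GC trend removed; DnaJ genes had -0.48, and -0.59 with DESeq2 size factors, -0.34 with the nuclear total and 0.03 with the GC trend removed. The log2 ratio of small over general TPM was -0.06 without replicate 1 and -2.74 without replicate 2. Over both libraries its mean was -1.40, and the alternative means ran from -2.33 (without Hspb6) to 0.01 (GC profile of replicate 2). Each alternative differed from -1.40 by less than the SD of 1.89, which cannot show that the ratio is stable. With 2 libraries, leaving out either always moves the mean by less than the SD. At the GC profile of replicate 2 the SD was 0.1. That cannot show a stable ratio either, because the step was not repeated without Hspb6. Before it, Hspb6 held 66.3% of the summed TPM of the small heat shock proteins in replicate 1, nearly all on its noncoding transcript. The number of pairs with 1 sign in both libraries was 13 of 16 under a pseudocount of 1 TPM, under posterior mean TPM and at the GC profile, the last with other pairs. Leading transcripts were the same in 27 of 45 members, and in 28 by the posterior share.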
